A study of Homo sapiens with 6 samples.

Results

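The genes described here are 36 genes of cholesterol and fatty acid synthesis, taken by gene symbol from the 56638 symbols counted in RNA-seq of DLD-1, a human cell line established from a colorectal tumour. Cells that received an siRNA targeting lncSLCC1 (the long non-coding RNA with the symbol RP11-400N13.2) were set against cells that received a control siRNA, with 3 libraries in each group. Both groups shared the line and a medium with fetal bovine serum, so the cells had an outside supply of sterols and fatty acids. The sources used here give neither the siRNA sequences nor the time between transfection and harvest. Of the 36 genes, 22 belong to the cholesterol branch, made up of 18 enzymes and 4 regulators, and 14 belong to the fatty acid branch. All 22 genes of the first branch and 13 of the second had enough reads to be tested, and ELOVL5 did not.

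Cholesterol is built from acetyl-CoA through mevalonate, isoprenoid diphosphates, squalene and lanosterol, and lanosterol is then trimmed and reduced to cholesterol. Fatty acid synthesis starts from the same acetyl-CoA, which is carboxylated, polymerised to palmitate, and then elongated, desaturated and activated by attachment to coenzyme A. Many genes of both pathways are targets of the SREBP transcription factors, which the escort protein SCAP carries from the endoplasmic reticulum when sterols are low and which INSIG proteins hold there when sterols are plentiful. Colorectal tumours are known for active fatty acid synthesis, with abundant fatty acid synthase.

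Reads assigned to genes numbered 12572277 to 15262872 per library for lncSLCC1 siRNA and 14873343 to 15568075 for control siRNA. The targeted RNA RP11-400N13.2 measured 1.66, 2.62 and 2.10 CPM in lncSLCC1 siRNA libraries 1, 2 and 3, against 5.197, 9.31 and 9.04 CPM in control libraries 1, 2 and 3. CPM are counts scaled to library sizes normalised by TMM. Its log2 fold change was -1.88 (SE 0.264), the Benjamini-Hochberg adjusted p was 0.0027 by the quasi-likelihood test of edgeR, and the groups did not overlap. Of 10 epithelial and intestinal markers, 8 reached 1 CPM, and their sum was 5899 to 6227 CPM in lncSLCC1 siRNA libraries and 5795 to 7220 CPM in control libraries. Markers of other cells were low. None of 4 immune and 3 adipocyte markers and 1 each of 5 fibroblast, 3 endothelial and 3 hepatocyte markers reached 1 CPM. The adipocyte markers summed to 0.779 to 1.13 CPM with lncSLCC1 siRNA and 0.427 to 0.586 CPM with control siRNA, and the hepatocyte markers to 5.71 to 7.01 CPM and 4.36 to 4.98 CPM, in that order of groups. The fibroblast markers summed to 3.06 to 3.27 CPM with lncSLCC1 siRNA and 2.21 to 2.73 CPM with control siRNA, the endothelial markers to 1.403 to 1.98 CPM and 1.24 to 2.07 CPM, and the immune markers to at most 0.266 and 0.521 CPM, in that order. The adipocyte, hepatocyte and fibroblast sums did not overlap between the groups. Their part in the results was not tested. Control library 1 stood apart over all tested genes: it lay outside the range of the other 5 libraries for 61.7%, against 21.9 to 34.3% for each other library. In the cholesterol branch it did so for 16 of the 22 genes, against 1 to 9 for each other library. In the fatty acid branch it did not stand apart, at 4 of the 13 genes against 2 to 6. Whether replicates were separate cultures is not in the labels, and the spread behind the p-values is that of the libraries and may be technical. In bulk RNA, fewer cells of a type and less RNA per cell cannot be told apart.

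Synthesis genes changed in both directions in each branch. In the cholesterol branch the enzymes DHCR7, MVK, HSD17B7 and MSMO1 fell and the regulator INSIG1 rose, and in the fatty acid branch ACSL1 fell and ACSL4 rose. That is 5 lower and 2 higher of 35 tested genes, where 13.8% of all 15242 tested genes were called at an adjusted p under 0.05 (edgeR, Benjamini-Hochberg), 6.46% higher and 7.39% lower. With library totals in place of TMM scaling the balance turned, to 3 lower and 5 higher of the 35 and to 814 lower and 1442 higher of all tested genes, against 1126 lower and 984 higher with TMM. By branch, 5 of 22 cholesterol genes (22.7%) and 2 of 13 fatty acid genes (15.4%) were called. The median log2 fold change was -0.09 over the cholesterol branch and 0.01 over all tested genes. By library, the median log2 difference of the cholesterol genes from their control mean was -0.10, -0.13 and -0.09 in lncSLCC1 siRNA libraries 1, 2 and 3, against 0.14, -0.04 and -0.09 in control libraries 1, 2 and 3. The lncSLCC1 siRNA medians were all below the control medians, only just below that of control library 3, and the branch as a whole was not tested. Over the fatty acid branch the median was -0.0037, and it turned to 0.07 when library totals replaced TMM scaling, which moved the median of all genes to 0.08. In 8 of the 35 genes every lncSLCC1 siRNA library was higher than every control library and in 10 every one was lower; over all tested genes the groups did not overlap in 39.0%, with 19.4% higher and 19.6% lower.

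**Figure D1:**
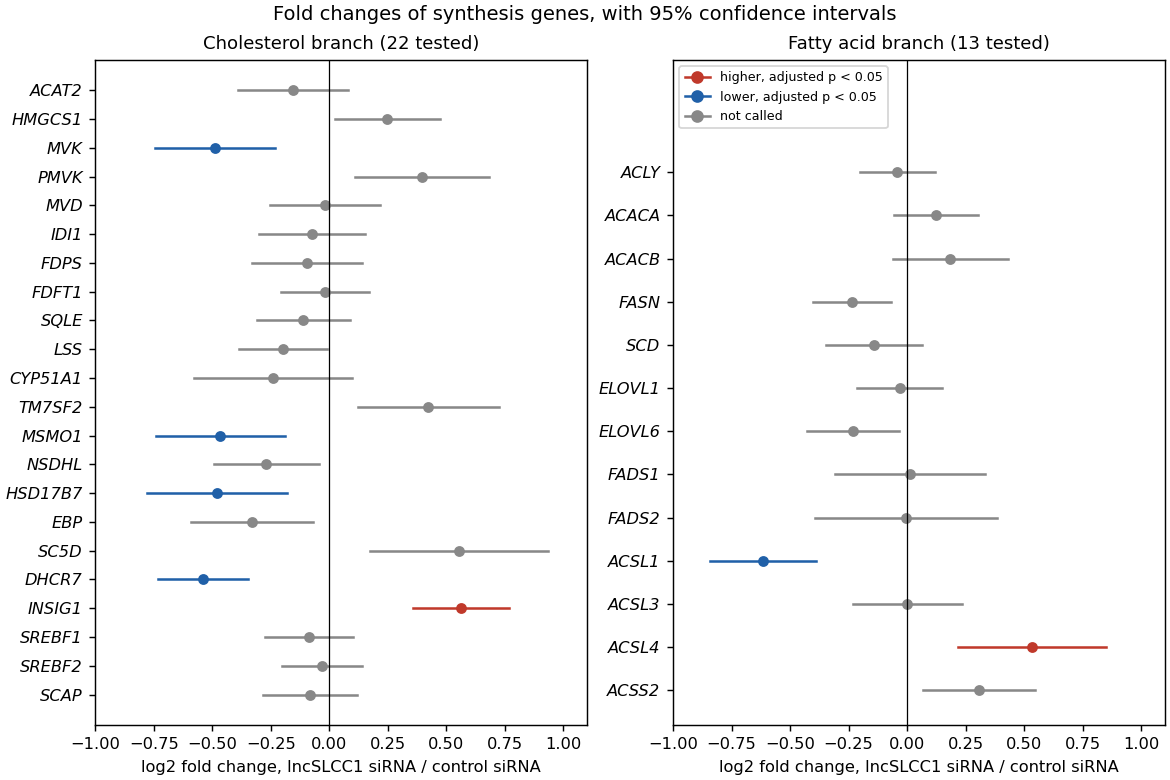
Log2 fold change of lncSLCC1 siRNA over control siRNA for each tested synthesis gene, cholesterol branch on the left and fatty acid branch on the right, with 95% confidence intervals as bars. Red marks the 2 genes called higher, blue the 5 called lower and grey those not called; ACSL1 lies lowest at -0.62 and INSIG1 highest at 0.56.

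The stretches of DNA before the start sites of the called cholesterol genes are shown because SREBPs and their partner NF-Y are known to act there. Each window runs from 250 bases before to 50 bases after a start site (RefSeq, GRCh38.p14), read 5′ to 3′ on the gene's strand. Where several start sites are listed for a gene, only the first was used. Capitals mark the NF-Y box CCAAT and the core of the sterol regulatory element CACNCCAC, searched on both strands, so that ATTGG is the box on the other strand. MVK lies at chr12:109573544-109573843 on the plus strand, MSMO1 at chr4:165327419-165327718 on the plus strand and HSD17B7 at chr1:162790452-162790751 on the plus strand. DHCR7 lies at chr11:71448344-71448643 on the minus strand, and INSIG1 at chr7:155297628-155297927 on the plus strand.
MVK: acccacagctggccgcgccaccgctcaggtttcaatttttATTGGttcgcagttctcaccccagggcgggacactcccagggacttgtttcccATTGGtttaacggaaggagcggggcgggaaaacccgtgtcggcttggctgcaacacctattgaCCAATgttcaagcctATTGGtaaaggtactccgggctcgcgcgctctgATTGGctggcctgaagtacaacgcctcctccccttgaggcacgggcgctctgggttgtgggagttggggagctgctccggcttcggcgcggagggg
MSMO1: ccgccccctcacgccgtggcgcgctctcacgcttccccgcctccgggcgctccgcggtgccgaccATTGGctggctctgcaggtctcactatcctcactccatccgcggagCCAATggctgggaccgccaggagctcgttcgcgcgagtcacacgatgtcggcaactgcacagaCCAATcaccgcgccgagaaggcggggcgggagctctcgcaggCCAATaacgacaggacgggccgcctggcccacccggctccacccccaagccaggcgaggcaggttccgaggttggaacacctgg
HSD17B7: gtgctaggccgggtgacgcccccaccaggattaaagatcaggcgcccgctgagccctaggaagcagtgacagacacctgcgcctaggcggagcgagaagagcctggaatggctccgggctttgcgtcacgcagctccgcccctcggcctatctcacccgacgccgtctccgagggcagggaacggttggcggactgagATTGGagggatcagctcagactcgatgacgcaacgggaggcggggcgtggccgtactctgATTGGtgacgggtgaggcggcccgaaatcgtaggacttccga
DHCR7: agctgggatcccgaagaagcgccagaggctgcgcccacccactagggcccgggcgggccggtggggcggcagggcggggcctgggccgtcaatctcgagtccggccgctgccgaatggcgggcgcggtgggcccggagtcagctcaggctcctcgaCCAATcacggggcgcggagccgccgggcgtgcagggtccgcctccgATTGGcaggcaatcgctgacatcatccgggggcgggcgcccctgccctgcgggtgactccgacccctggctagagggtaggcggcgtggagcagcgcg
INSIG1: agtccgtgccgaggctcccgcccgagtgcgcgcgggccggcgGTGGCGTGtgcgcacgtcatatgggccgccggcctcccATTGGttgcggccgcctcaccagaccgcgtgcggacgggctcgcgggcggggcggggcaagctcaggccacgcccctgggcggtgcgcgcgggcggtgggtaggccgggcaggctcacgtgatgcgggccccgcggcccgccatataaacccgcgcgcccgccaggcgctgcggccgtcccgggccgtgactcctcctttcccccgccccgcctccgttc
The window of MVK holds 5 NF-Y boxes, that of MSMO1 4, those of HSD17B7 and DHCR7 2 each and that of INSIG1 1. INSIG1 alone of these genes holds a sterol element core, on the other strand. Only the pattern CACNCCAC was searched, in 1 window per gene. Sites with other letters or outside the window were not looked for.

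Windows were matched for 32 of the 36 genes, and none was matched for ACAT2, FDFT1, SQLE and FASN. The NF-Y box was present in 14 of 19 cholesterol windows (73.7%) and in 6 of 13 fatty acid windows (46.2%), against 36.6% of the 9761 tested genes with a window. The sterol element core was present in 3 of 19 cholesterol windows (15.8%) and 2 of 13 fatty acid windows (15.4%), against 5.55% of tested genes with a window. The Sp1 box GGGCGG was present in 18 of 19 and 10 of 13 windows, against 69.9%, and the E-box CACGTG in 4 of 19 and 1 of 13, against 10.1%. Members are listed synthesis genes, so these shares describe the gene class and not its response. Of the 5 members that fell, the 4 cholesterol enzymes hold an NF-Y box and ACSL1 holds none in the window searched. For ACSL1 5 windows are listed and for DHCR7 2, and only the first of each was searched. Of the 2 members that rose, INSIG1 holds 1 and ACSL4 none. The other 4 genes with a sterol element core are shown by 30 bases around it, with the core in capitals. SC5D lies at chr11:121292773-121292802 on the plus strand and SREBF2 at chr22:41832962-41832991 on the plus strand. SCD lies at chr10:100347108-100347137 on the plus strand and ACSL4 at chrX:109733355-109733384 on the minus strand.
SC5D: tttgcagagcaGTGGCGTGcggagcggcgg
SREBF2: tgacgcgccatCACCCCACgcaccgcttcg
SCD: gcagaggccggGTGGTGTGgtgtcggtgtc
ACSL4: gctggctctgcCACACCACcgcgcgccccc
With INSIG1 these make 5 genes that hold the core.

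The early mevalonate steps held 1 called gene, MVK, which fell. MVK encodes mevalonate kinase, the enzyme that first phosphorylates mevalonate. MVK stood at 23.2, 22.1 and 22.1 CPM in lncSLCC1 siRNA libraries 1, 2 and 3, against 36.1, 30.0 and 28.5 CPM in control libraries 1, 2 and 3. Every lncSLCC1 siRNA library was below every control library, and the control libraries were more spread. The means were 22.4 ± 0.642 and 31.5 ± 4.02 CPM (SD, n = 3 each), which put lncSLCC1 siRNA cells at 71.2% of control. MVK had a log2 fold change of -0.49 (SE 0.115), with an adjusted p of 0.0232 (edgeR).

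PMVK, the kinase that acts next on the product of MVK, did not fall with it. Its levels were 30.2, 25.99 and 27.5 CPM with lncSLCC1 siRNA, against 24.1, 21.6 and 17.9 CPM with control siRNA. The groups did not overlap, with lncSLCC1 siRNA above, and the log2 fold change was 0.40 (SE 0.128) with an adjusted p of 0.0658 (edgeR), so it was not called. PMVK passed in 5 of 15 alternatives, among them DESeq2 at an adjusted p of 0.04765. HMGCS1, which makes HMG-CoA at the entry to the pathway, stood at 197, 198 and 196 CPM with lncSLCC1 siRNA, against 140.0, 173 and 184 CPM with control siRNA. Here too every lncSLCC1 siRNA library was above every control library, and control library 1 was the lowest. HMGCS1 had a log2 fold change of 0.25 (SE 0.101, 95% confidence interval 0.02 to 0.47; adjusted p 0.126, edgeR). For ACAT2, the cytosolic thiolase that supplies acetoacetyl-CoA, and for MVD, IDI1 and FDPS, which carry mevalonate diphosphate to farnesyl diphosphate, the groups overlapped. Their log2 fold changes were -0.16 for ACAT2, -0.02 for MVD, -0.07 for IDI1 and -0.10 for FDPS, with adjusted p from 0.335 to 0.922 (edgeR). The sign for MVD turned with library totals and with offsets for GC content and length, and the sign for FDPS turned with those offsets. In GENCODE 29, genes on the other strand overlap several of these. Of the exonic bases of ACAT2, 26.5% overlap SOD2 and 33.9% overlap SOD2-OT1. RUSC1-AS1 overlaps 18.6% of those of FDPS, AC114947.2 14.95% of those of HMGCS1 and IDI2-AS1 14.8% of those of IDI1. Reads there could not be told apart without a stated strand setting.

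No gene of the squalene steps was called. FDFT1, squalene synthase, SQLE, squalene epoxidase, and LSS, lanosterol synthase, had log2 fold changes of -0.02 (SE 0.0841), -0.11 (SE 0.0890) and -0.20 (SE 0.0844), with adjusted p from 0.141 to 0.894 (edgeR). LSS was the one whose groups did not overlap, at 115, 111 and 117 CPM with lncSLCC1 siRNA and 143, 125 and 124 CPM with control siRNA. FDFT1 ranged from 191 to 207 CPM with lncSLCC1 siRNA and from 186 to 221 CPM with control siRNA, and its sign turned with library totals and with GC content and length offsets. SQLE ranged from 70.5 to 73.5 CPM and from 72.1 to 85.2 CPM, in the same order.

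After lanosterol, DHCR7, MSMO1 and HSD17B7 of 8 enzymes fell, where 7.39% of all tested genes were called lower, and the calls of MSMO1 and HSD17B7 were lost with library totals and in 4 of the 6 fits without 1 library. DHCR7, which reduces 7-dehydrocholesterol to cholesterol in the last step, stood at 114, 113 and 114 CPM with lncSLCC1 siRNA, against 182, 152 and 161 CPM with control siRNA. The lncSLCC1 siRNA libraries were nearly equal and all below the controls. Means were 113 ± 0.596 and 165 ± 15.3 CPM (SD, n = 3 each), so the level was 68.7% of control. DHCR7 had a log2 fold change of -0.54 (SE 0.0857, 95% confidence interval -0.73 to -0.35; adjusted p 0.00462, edgeR). It was called in all 15 alternatives, including each library left out in turn.

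MSMO1, NSDHL and HSD17B7 act together in removing methyl groups from the sterol ring, and MSMO1 and HSD17B7 fell. MSMO1, the methylsterol monooxygenase, stood at 54.9, 53.1 and 59.6 CPM with lncSLCC1 siRNA, against 62.7, 83.2 and 85.5 CPM with control siRNA. Control library 1 was the nearest to the lncSLCC1 siRNA libraries, and the groups did not overlap. Its means were 55.9 ± 3.34 and 77.1 ± 12.6 CPM (SD, n = 3 each), and its log2 fold change was -0.47 (SE 0.123) with an adjusted p of 0.0353 (edgeR). HSD17B7, the ketosteroid reductase of the same reaction series, stood at 16.3, 19.2 and 17.8 CPM with lncSLCC1 siRNA, against 29.3, 23.7 and 21.7 CPM with control siRNA. Here control library 1 was the farthest from the lncSLCC1 siRNA libraries, and again the groups did not overlap. HSD17B7 averaged 17.8 ± 1.44 and 24.9 ± 3.91 CPM (SD, n = 3 each), with a log2 fold change of -0.48 (SE 0.134) and an adjusted p of 0.0414 (edgeR). Reads may be split with its near copy HSD17B7P2, which held 61 to 95 reads with lncSLCC1 siRNA and 88 to 109 reads with control siRNA, so the level of HSD17B7 is uncertain. NSDHL, the dehydrogenase of the series, stood at 47.0, 42.7 and 42.5 CPM with lncSLCC1 siRNA, against 59.0, 51.0 and 49.3 CPM with control siRNA. Its groups did not overlap, but with a log2 fold change of -0.27 (SE 0.101) and an adjusted p of 0.102 (edgeR) it was not called.

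The other 4 late enzymes were not called, and their values lay on both sides of the controls. SC5D, the desaturase that makes 7-dehydrocholesterol and so the substrate of DHCR7, stood at 72.3, 67.1 and 69.9 CPM with lncSLCC1 siRNA, against 32.9, 54.9 and 54.9 CPM with control siRNA. All lncSLCC1 siRNA libraries were above the controls, and control library 1 was far below the other controls. The log2 fold change of SC5D was 0.55 (SE 0.170) with an adjusted p of 0.0573 (edgeR). Without control library 1, where 29.0% of all tested genes were called, it was 0.34 with an adjusted p of 0.000467 (edgeR). SC5D was called in 2 of the 6 fits without 1 library, with adjusted p up to 0.166 (edgeR). SC5D passed in 6 of 15 alternatives, among them DESeq2 at an adjusted p of 0.0222. TM7SF2, a sterol reductase, stood at 36.1, 36.1 and 36.2 CPM with lncSLCC1 siRNA, against 33.0, 24.99 and 23.0 CPM with control siRNA. Its groups did not overlap, and the log2 fold change was 0.42 (SE 0.135) with an adjusted p of 0.0634 (edgeR). Without control library 1 it was 0.59 with an adjusted p of 1.19e-05 (edgeR). That was the 1 of 6 fits without 1 library that called TM7SF2, and adjusted p ran up to 0.205 (edgeR). TM7SF2 too passed in 6 of 15 alternatives, among them DESeq2 at an adjusted p of 0.0373. EBP, the sterol isomerase, ranged from 78.0 to 84.2 CPM with lncSLCC1 siRNA and from 88.0 to 121 CPM with control siRNA, with a log2 fold change of -0.33 and an adjusted p of 0.0854 (edgeR). CYP51A1, the lanosterol demethylase, ranged from 5.45 to 6.45 CPM with lncSLCC1 siRNA and from 5.99 to 7.55 CPM with control siRNA, with a log2 fold change of -0.24 and an adjusted p of 0.303 (edgeR). In GENCODE 29, 79.4% of the exonic bases of CYP51A1 also belong to AC000120.2 on the same strand, so its level is uncertain.

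Among the regulators of SREBP, INSIG1 rose and the SREBP genes were not called. INSIG1 encodes the endoplasmic reticulum protein that holds SCAP and is itself a known SREBP target. INSIG1 stood at 58.7, 53.6 and 61.6 CPM with lncSLCC1 siRNA, against 37.9, 40.9 and 38.8 CPM with control siRNA. The groups were well apart and the controls close together. Means were 58.0 ± 4.01 and 39.2 ± 1.51 CPM (SD, n = 3 each), or 148% of control. INSIG1 had a log2 fold change of 0.56 (SE 0.0924, 95% confidence interval 0.36 to 0.77; adjusted p 0.00536, edgeR). SREBF2, which encodes the SREBP that mainly drives cholesterol genes, ranged from 189 to 209 CPM with lncSLCC1 siRNA and from 195 to 215 CPM with control siRNA. SREBF1, which encodes the SREBPs that mainly drive fatty acid genes, ranged from 126 to 133 CPM and from 127 to 149 CPM, in the same order. The 95% confidence intervals of their log2 fold changes were -0.20 to 0.14 for SREBF2 and -0.28 to 0.10 for SREBF1, so neither interval reached the fold of INSIG1. The point estimate of SREBF2, -0.03, turned to 0.04 with library totals. SCAP had a log2 fold change of -0.08 (SE 0.0904, adjusted p 0.570, edgeR), with overlapping groups.

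**Figure D2:**
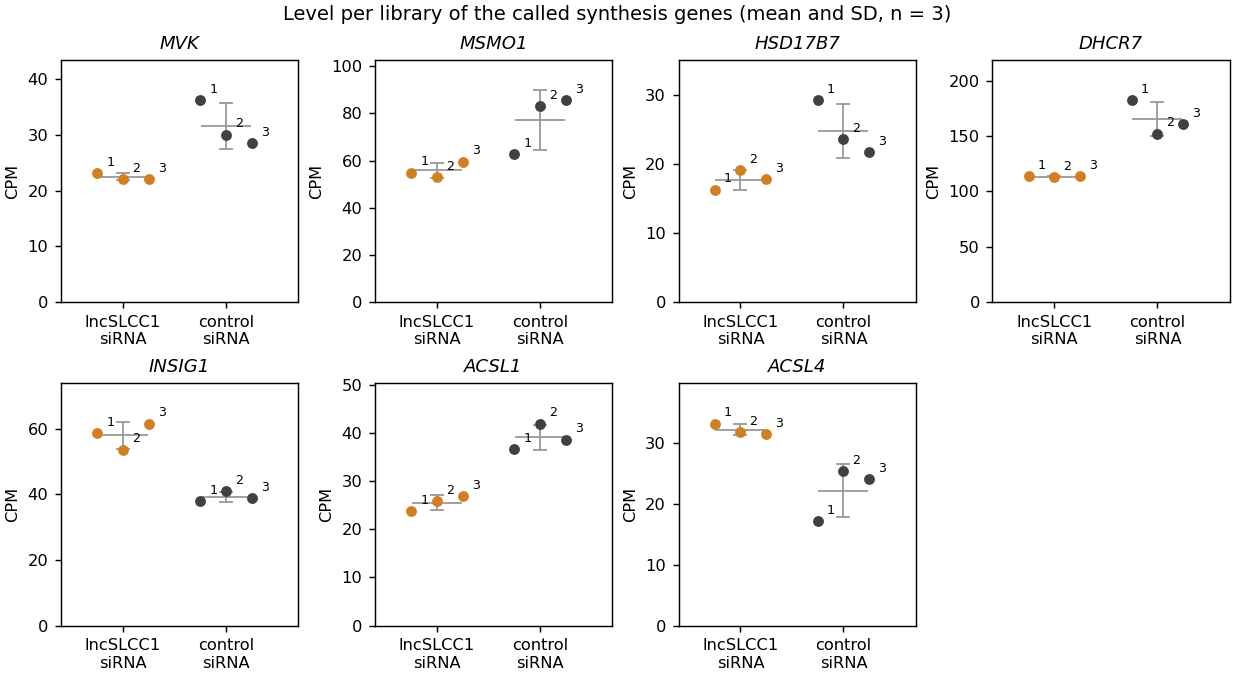
CPM of the 7 called synthesis genes in each library, with lncSLCC1 siRNA left of control siRNA, replicate numbers beside the points, and grey lines for the mean and SD of 3 libraries. The groups do not overlap in any of the 7; control library 1 is the highest control for MVK, HSD17B7 and DHCR7 and the lowest for MSMO1, INSIG1, ACSL1 and ACSL4.

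In the fatty acid branch the enzymes that make palmitate were not called. ACLY, which cleaves citrate to cytosolic acetyl-CoA, ranged from 478 to 502 CPM with lncSLCC1 siRNA and from 478 to 517 CPM with control siRNA, with a log2 fold change of -0.04 (SE 0.0716) that turned to 0.03 with library totals. ACSS2, which makes acetyl-CoA from acetate, stood at 59.4, 52.8 and 54.8 CPM with lncSLCC1 siRNA, against 51.3, 41.8 and 41.9 CPM with control siRNA. Its groups did not overlap, with lncSLCC1 siRNA above, and the log2 fold change was 0.31 (SE 0.108) with an adjusted p of 0.0843 (edgeR). ACACA and ACACB, the acetyl-CoA carboxylases, had log2 fold changes of 0.12 and 0.18, with adjusted p of 0.322 and 0.281 (edgeR).

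FASN, fatty acid synthase, was the most abundant synthesis gene in control libraries per length and was not called. FASN stood at 906, 910.4 and 869 CPM with lncSLCC1 siRNA, against 1042, 1002 and 1119 CPM with control siRNA. Every lncSLCC1 siRNA library was below every control library. Means were 895.0 ± 22.7 and 1054 ± 59.7 CPM (SD, n = 3 each), so the level was 84.9% of control. FASN had a log2 fold change of -0.24 (SE 0.0751, 95% confidence interval -0.40 to -0.07; unadjusted p 0.0105 and adjusted p 0.0625, edgeR). FASN passed the threshold in 3 of 15 alternatives. These were control library 1 left out, no low-count filter, and GC content and length offsets, at adjusted p of 0.00106, 0.0199 and 0.000956 (edgeR).

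The enzymes that elongate and desaturate palmitate were also not called. SCD, the stearoyl-CoA desaturase, ranged from 125 to 133 CPM with lncSLCC1 siRNA and from 130.1 to 161 CPM with control siRNA, with a log2 fold change of -0.14 (SE 0.0924). ELOVL6, which elongates palmitate, stood at 47.2, 52.3 and 52.2 CPM with lncSLCC1 siRNA, against 59.0, 57.1 and 61.9 CPM with control siRNA. Its groups did not overlap, and the log2 fold change was -0.23 (SE 0.0885) with an adjusted p of 0.106 (edgeR). ELOVL1, an elongase of very long chains, had a log2 fold change of -0.03, which turned positive with library totals and with GC content and length offsets. FADS1 and FADS2, the desaturases of polyunsaturated chains, had log2 fold changes of 0.01 (SE 0.144) and -0.0037 (SE 0.174), and the sign for FADS2 turned under 4 alternatives that kept all libraries. They share 490 exonic bases on opposite strands in GENCODE 29. ELOVL5, an elongase of polyunsaturated chains, held 0 to 2 reads with lncSLCC1 siRNA and 1 to 7 reads with control siRNA, too few to test.

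The long-chain acyl-CoA synthetases, which activate fatty acids, held both called genes of the fatty acid branch. ACSL1, a synthetase known in liver and fat, stood at 23.9, 25.9 and 27.0 CPM with lncSLCC1 siRNA, against 36.7, 42.0 and 38.7 CPM with control siRNA. The groups were well apart, with every lncSLCC1 siRNA library below. Means were 25.6 ± 1.58 and 39.2 ± 2.68 CPM (SD, n = 3 each), or 65.3% of control. ACSL1 had a log2 fold change of -0.62 (SE 0.102, 95% confidence interval -0.84 to -0.39; adjusted p 0.00549, edgeR), and it was called in all 15 alternatives. ACSL4, a synthetase with a preference for arachidonate, stood at 33.3, 31.9 and 31.6 CPM with lncSLCC1 siRNA, against 17.2, 25.5 and 24.1 CPM with control siRNA. Control library 1 was below the other controls, and every lncSLCC1 siRNA library was above all 3. ACSL4 averaged 32.3 ± 0.907 and 22.3 ± 4.40 CPM (SD, n = 3 each), with a log2 fold change of 0.53 (SE 0.142) and an adjusted p of 0.0361 (edgeR). Without control library 1 the log2 fold change of ACSL4 was 0.38. ACSL3, a synthetase of the endoplasmic reticulum and lipid droplets, had a log2 fold change of 0.0009 (SE 0.104), whose sign turned without a low-count filter and with GC content and length offsets, and overlapping groups.

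Per transcript length, ACSL4 stood at 1.07, 0.950 and 0.901 times the level of ACSL1 in lncSLCC1 siRNA libraries 1, 2 and 3, against 0.361, 0.466 and 0.478 times in control libraries 1, 2 and 3. So these transcripts were at near-equal levels with lncSLCC1 siRNA, while ACSL1 was the higher in every control library. With ACSL5, an intestinal synthetase outside the 36 genes, added, ACSL5 held 59.9 to 60.5% of the summed per-length level of ACSL1, ACSL3, ACSL4 and ACSL5 with lncSLCC1 siRNA and 58.7 to 65.5% with control siRNA. ACSL1 held 8.49 to 8.99% and 12.0 to 13.1%, and ACSL4 held 8.10 to 9.12% and 4.32 to 6.10%, in the same order.

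**Figure D3:**
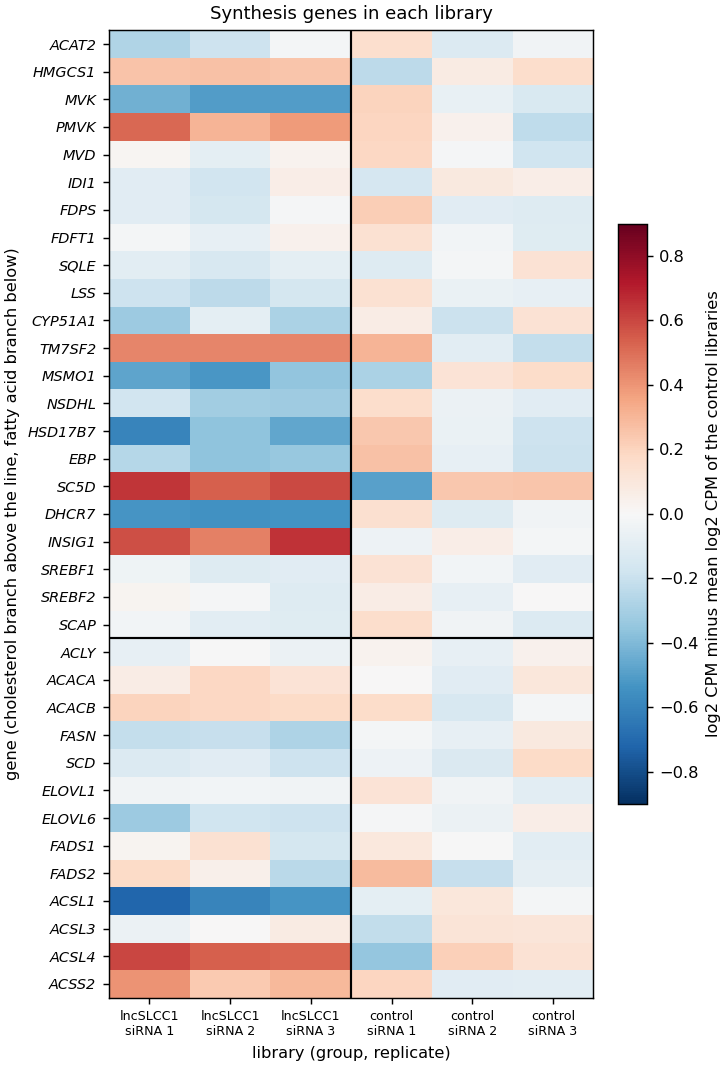
Log2 CPM of each tested synthesis gene in each library minus its mean over the control libraries, in red where higher and blue where lower, with lncSLCC1 siRNA libraries left of control libraries. SC5D and ACSL4 are red in all lncSLCC1 siRNA libraries and bluest in control library 1, and DHCR7 and ACSL1 are blue in all 3 lncSLCC1 siRNA libraries.

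Levels of different genes were compared as CPM per kb of the longest transcript, with transcripts of the GENCODE basic set taken first. The highest were FASN, at 105 CPM per kb with lncSLCC1 siRNA and 123 with control siRNA, and ACLY, at 113 and 116. Next came ELOVL1, at 82.3 and 84.1 CPM per kb, and FDFT1, at 74.7 and 75.8. The lowest tested were FADS1, at 1.38 and 1.37 CPM per kb, CYP51A1, at 1.82 and 2.15, and FADS2, at 1.99 and 2.01. The called genes lay between these, with DHCR7 at 42.6 and 61.9 CPM per kb, MSMO1 at 24.6 and 34.0, INSIG1 at 19.3 and 13.02, and HSD17B7 at 15.0 and 20.9. SC5D and DHCR7, which act in succession, stood at 28.4 and 42.6 CPM per kb with lncSLCC1 siRNA and at 19.4 and 61.9 with control siRNA.

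**Figure D4:**
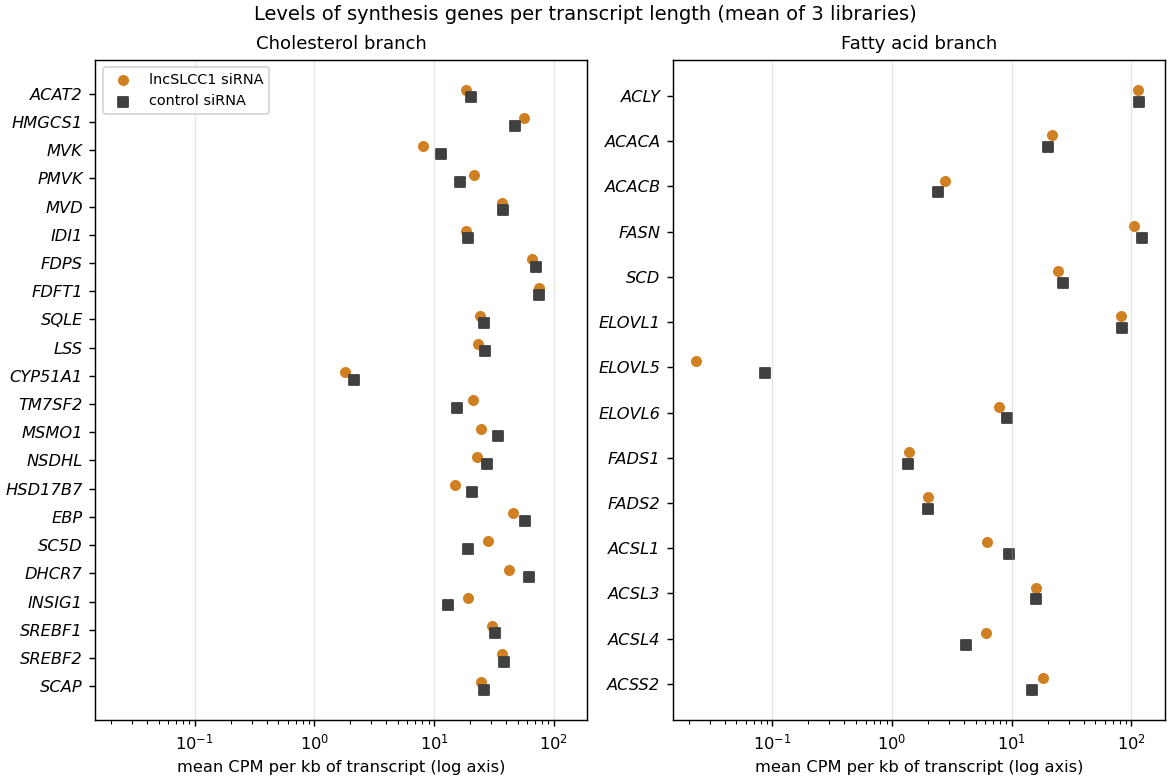
Mean CPM per kb of transcript over 3 libraries, on a log axis, for each of the 36 genes, with circles for lncSLCC1 siRNA and squares for control siRNA. ACLY and FASN lie farthest right, above 100 CPM per kb, and ELOVL5 far to the left of the other genes.

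How far the calls held without single libraries differed between the genes. DHCR7 and ACSL1 were called with any of the 6 libraries left out, at adjusted p up to 0.043 and 0.0451 (edgeR). INSIG1 was called in 5 of 6 such fits and lost without lncSLCC1 siRNA library 3, at an adjusted p of 0.0504. MVK, MSMO1, HSD17B7 and ACSL4 were called without control library 1 or 3 only. Without control library 2 their adjusted p were 0.072, 0.139, 0.107 and 0.0649 (edgeR). Without lncSLCC1 siRNA library 1, 2 or 3 these p ran from 0.0876 to 0.114 for MVK, 0.0987 to 0.155 for MSMO1, 0.109 to 0.162 for HSD17B7 and 0.117 to 0.129 for ACSL4. Over the 6 fits the log2 fold changes kept their sign, from -0.56 to -0.38 for MVK, -0.60 to -0.39 for MSMO1, -0.57 to -0.35 for HSD17B7 and 0.38 to 0.64 for ACSL4. In those 4 fits the calls over all tested genes also dropped, to 3.95% without control library 2 and to 3.79%, 3.03% and 2.93% without lncSLCC1 siRNA libraries 1, 2 and 3, while they were 29.0% without control library 1 and 23.7% without control library 3. With offsets for GC content and length, 12 of 22 cholesterol genes and 6 of 13 fatty acid genes were called, beside 29.6% of all tested genes. Without control library 1, PMVK, TM7SF2, SC5D, ACSS2 and ACACB also passed as higher and EBP, FASN and ELOVL6 as lower, at adjusted p from 1.19e-05 for TM7SF2 to 0.0287 for EBP (edgeR). Without control library 3, HMGCS1 and SC5D also passed as higher and EBP and NSDHL as lower, at adjusted p from 0.0190 for EBP to 0.0472 for NSDHL (edgeR). Library totals in place of TMM scaling ended the calls of MSMO1, at a log2 fold change of -0.40 and an adjusted p of 0.08, and of HSD17B7, at -0.41 and 0.0588 (edgeR).

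The words CCTTCT and CGGAGA in 3′ UTRs were looked up because earlier results of these data singled them out, so their shares are no independent evidence. For each gene the longest 3′ UTR was used, with transcripts of the GENCODE basic set taken first. CCTTCT was present in that of 8 of 22 cholesterol genes (36.4%) and 7 of 13 tested fatty acid genes (53.8%), against 46.2% of tested genes with a 3′ UTR. Of the 5 members that fell, DHCR7, MVK, MSMO1 and ACSL1 hold it and HSD17B7 does not, and neither INSIG1 nor ACSL4 does. Over all genes, 61.3% of those called lower and 49.5% of those called higher hold it. CGGAGA was present in MVK alone of the 7 called members, in 3 of 22 cholesterol genes and in 3 of 13 fatty acid genes, against 9.33% of tested genes. Over all genes, 8.09% of those called lower and 18.2% of those called higher hold it. The 3′ UTRs differed in length, with medians of 1212 bases for genes called lower, 1827 for those called higher and 1324 for all tested. The medians were 830.5 bases in the cholesterol branch and 1864 in the fatty acid branch. The part of length in these shares was not tested.

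Other genes of sterol and fatty acid metabolism, in 7 lists, also changed in both directions. Of 104 tested, 12 rose and 11 fell, or 22.1%, beside 13.8% of all tested genes, and their median log2 fold change was 0.02. With library totals 17 rose and 5 fell, or 21.2%, beside 14.8% of all tested genes. By list the share called in the main test ran from 9.09% to 33.3%, and no list was tested as a whole. In sterol synthesis and SREBP handling 1 of 13 tested genes rose and 2 fell. GGPS1, which makes geranylgeranyl diphosphate from the product of FDPS, rose by 0.43 on the log2 scale (SE 0.0905, adjusted p 0.0145, edgeR).

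Among 13 tested genes of sterol uptake, transport and storage, 1 rose and 1 fell, or 15.4%, near the 13.8% of all tested genes. SCARB1, the HDL receptor, stood at 60.8, 60.7 and 56.8 CPM with lncSLCC1 siRNA, against 118, 111 and 110.3 CPM with control siRNA. The groups were far apart, and the log2 fold change of -0.93 (SE 0.0806, adjusted p 0.000297, edgeR) held with each library left out. OSBP, the oxysterol-binding transfer protein, rose by 0.32 on the log2 scale (SE 0.0699, adjusted p 0.0183, edgeR). Of 10 LXR and sterol efflux genes 5 were tested, and NR1H3, which encodes LXR alpha, rose by 0.44 (SE 0.118, adjusted p 0.0362, edgeR).

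Of 21 tested genes for other steps of fatty acid synthesis, 3 rose and 4 fell, or 33.3%, beside 13.8% of all tested genes. ME1, the NADPH-forming malic enzyme, rose by 0.53 on the log2 scale (SE 0.110, adjusted p 0.0146, edgeR), and HSD17B12, a reductase of chain elongation, by 0.40 (SE 0.0952, adjusted p 0.0253, edgeR). Of 11 tested genes of activation and uptake, ACSL6 rose by 0.93 (SE 0.240, adjusted p 0.0325, edgeR), at levels of 2.04 to 2.34 CPM with lncSLCC1 siRNA and 0.911 to 1.37 CPM with control siRNA, and it was not called by DESeq2, at an adjusted p of 0.0642. DBI, the acyl-CoA-binding protein, had a log2 fold change of -0.48 (SE 0.0962, adjusted p 0.0128, edgeR).

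Of 22 tested genes of fatty acid oxidation 1 rose and 1 fell, or 9.09%, beside 13.8% of all tested genes. EHHADH, a peroxisomal enzyme, rose by 0.55 on the log2 scale (SE 0.120, adjusted p 0.017, edgeR), and HADHB, a subunit of the mitochondrial trifunctional protein, had a log2 fold change of -0.31 (SE 0.0824, adjusted p 0.0372, edgeR), which was not called with library totals, at -0.24 and an adjusted p of 0.0574. Of 19 tested genes of glycerolipids and lipid droplets, 4 rose and 2 fell, or 31.6%. MGLL, monoacylglycerol lipase, stood at 14.2, 15.4 and 15.3 CPM with lncSLCC1 siRNA, against 29.5, 24.6 and 22.9 CPM with control siRNA. Its groups did not overlap, and the log2 fold change of -0.78 (SE 0.124, adjusted p 0.00462, edgeR) held with each library left out. AGPAT1, an acyltransferase of phosphatidate synthesis, had a log2 fold change of -0.56 (SE 0.104, adjusted p 0.00939, edgeR). PLIN2, a lipid droplet coat protein, stood at 1.46, 1.02 and 1.09 CPM with lncSLCC1 siRNA, against 0.214, 0.391 and 0.195 CPM with control siRNA. These levels rest on 14 to 22 reads and 3 to 6 reads per library, in that order, and the fitted log2 fold change was 2.12 (SE 0.387, adjusted p 0.00837, edgeR). Of these 13 genes, SCARB1, MGLL and PLIN2 were called with any library left out, and the other 10 in 1 to 3 of the 6 fits. PLIN2 passed the expression filter only through the lncSLCC1 siRNA libraries, where it was high, so its calls are no independent support. It had a value in 13 of 15 alternatives.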

How the data were processed

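RNA-seq of DLD-1 cells was analysed from the authors' deposited raw counts per gene symbol, 1 table for each of 6 libraries. TopHat2 2.0.11, HTSeq and builds hg19 and GRCh37 are named, per the submitters' processing notes; for strand setting and annotation release: not given in the sources used here. HTSeq's 5 summary lines were left out: 5.42 to 7.58% no feature, 8.83 to 10.1% ambiguous and 12.8 to 13.8% not unique. Groups came from the labels. All genes were fitted with edgeR 4.0.16 (R 4.3.3; TMM, default expression filter, no covariate) by the quasi-likelihood test with Benjamini-Hochberg adjustment; genes under 0.05 were called. The biological coefficient of variation was 10.9%. The script was tested on simulated data with 50 genes planted at each fold. It called 12 at 1.3-fold, 35 at 1.5-fold, 48 at 2-fold and 50 at 3-fold, and also 9 unchanged genes. Changes of the smaller sizes can thus go uncalled. Alternatives were DESeq2 1.42.0, limma-voom (limma 3.58.1), other scalings and filters, robust dispersions, GC content and length offsets (GENCODE 29, for 89.4% of tested genes), the replicate number as a block, and each library left out. Members and lists were chosen with earlier results of these data known. All members are named; called members, and the 3 with the smallest p in each branch, have full values. Per other list, up to 3 called genes are named; a few of these are not reported here. No libraries agreed within sampling noise: the chi-square per gene was 1.87 to 1.99 between lncSLCC1 siRNA libraries and 5.97 to 31.2 between controls.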

Additional observations from a re-analysis of the deposited data

How the results depend on the processing

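With all libraries kept, the calls of DHCR7, MVK, INSIG1, ACSL1 and ACSL4 held under 9 alternatives, and those of MSMO1 and HSD17B7 under all but library totals. Counts moved more. GC content and length offsets called 2023 genes higher and 2487 lower over all genes, and no low-count filter called 1600 higher. Leaving out 1 library gave 213 to 2112 higher and 244 to 2431 lower. In the cholesterol branch, genes called higher numbered 3 with library totals, 4 without a filter, 3 with the replicate block, 4 with DESeq2, 5 with the offsets and 0 to 4 without 1 library. Those called lower numbered 2 with library totals, 7 with the offsets and 1 to 6 without 1 library. Shares called of the cholesterol genes were 22.7% with library totals, 40.9% without a filter and 31.8% with the block. They were 36.4% with DESeq2 and 54.55% with the offsets. In that order, the shares over all tested genes were 14.8%, 10.9%, 13.5%, 14.5% and 29.6%, with 30025 genes tested without a filter. In the fatty acid branch, 2 were called higher with library totals and with the offsets, and 0 to 3 without 1 library. Those called lower numbered 2 without a filter, 4 with the offsets and 1 to 3 without 1 library. Shares called of the fatty acid genes were 23.1% with library totals, 21.4% without a filter and 15.4% with the block. They were 15.4% with DESeq2 and 46.2% with the offsets, beside the same shares over all tested genes. The fatty acid median was 0.0673 with library totals and -0.0527 to 0.0302 without 1 library. Other lipid genes called higher numbered 23 with the offsets and 1 to 22 without 1 library; those called lower numbered 5 with library totals, 5 with the replicate block, 18 with the offsets and 2 to 18 without 1 library. Of the other lipid genes, 21.2% were called with library totals and 39.4% with the offsets. Without 1 library, 2.93 to 29.0% of all tested genes were called. The cause of these moves was not tested.

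Signs turned for members near 0, none of them called. With library totals the log2 fold changes were 0.0532 for MVD, 0.0513 for FDFT1, 0.0381 for SREBF2, 0.0280 for ACLY, 0.0388 for ELOVL1 and 0.0681 for FADS2. With GC content and length offsets they were 0.1203 for MVD, 0.0230 for FDPS, 0.0095 for FDFT1, 0.0751 for ELOVL1, 0.0189 for FADS2 and -0.1662 for ACSL3. FADS2 had 0.0028 with the filter at a mean of 1 CPM and 0.0066 with limma-voom, and ACSL3 had -0.0030 without a filter. Without 1 library the ranges were -0.108 to 0.0772 for MVD, -0.1587 to 0.0195 for FDPS, -0.0773 to 0.0481 for FDFT1, -0.0715 to 0.0052 for SREBF2, -0.0816 to 0.0302 for ELOVL1, -0.0631 to 0.0844 for FADS1, -0.1088 to 0.1534 for FADS2 and -0.1045 to 0.0555 for ACSL3.

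The labels do not say whether replicate numbers pair the libraries. Deviations from group means correlated at 0.094, 0.001 and -0.016 between same-numbered libraries. Between differently numbered libraries they correlated at -0.085 to 0.102. With 3 libraries per group these values cannot decide on pairing. The block added SC5D and TM7SF2 to the cholesterol genes called higher, at adjusted p of 0.0291 and 0.0479 (edgeR). With the block 14.4% of the other lipid genes were called, beside 13.5% of all tested genes, and HADHB was not called, at an adjusted p of 0.0604 (edgeR). ELOVL5 and PLIN2 held few reads, and DESeq2 gave no adjusted p for PLIN2.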
